A study of Mus musculus with 4 samples.

Results

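The proteasome genes described here were the 49 genes, of 19308 listed for all libraries, whose symbol begins with Psma, Psmb, Psmc, Psmd, Psme, Psmf or Psmg followed by a number. By role they comprised 7 alpha and 7 constitutive beta subunits of the 20S core, the 3 inducible beta subunits Psmb8, Psmb9 and Psmb10, 9 subunits of the 19S base and 8 of the 19S lid. The others were 3 chaperones of 19S assembly, 4 chaperones of 20S assembly, the activator genes Psme1, Psme2, Psme3 and Psme4, the regulator Psmf1, the testis-type alpha subunit Psma8, the Psme2 copy Psme2b, and Psmc3ip. Psmc3ip shares the symbol pattern but encodes a meiotic recombination factor and not a proteasome subunit. The symbol pattern itself uses no value of the libraries, but it was chosen with earlier results of these data known.

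Their transcript levels come from RNA sequencing of mouse colonic mucosa, with libraries made from total RNA. The WT group held 2 libraries with the genotype given as C57BL/6, and the Itch KO group held 2 libraries with the genotype given as Itch KO (Itch-/- mice), with no treatment, age or sex stated. Itch encodes an E3 ubiquitin ligase of the HECT type, an enzyme that attaches ubiquitin to proteins. All 4 libraries carry a label of inflammation, whereas the extraction protocol calls inflamed only the mucosa of the knockout mice, so loss of Itch and inflammation cannot be told apart in this design. No label says whether the replicates of a group came from separate animals, and p-values therefore measure only the spread between these libraries.

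The proteasome degrades proteins marked with ubiquitin. Its 20S core is a barrel whose outer rings of alpha subunits gate the entry and whose inner rings of beta subunits cut the substrate. The 19S particle caps the barrel, with ATPases in its base that unfold substrates and a lid that removes ubiquitin. Interferon gamma induces Psmb8 (LMP7), Psmb9 (LMP2) and Psmb10 (MECL-1), which take the places of Psmb5, Psmb6 and Psmb7 in newly assembled cores and form the immunoproteasome. The PA28 activator made of Psme1 and Psme2 is induced by the same cytokine. Leukocytes carry immunoproteasomes without stimulation, whereas epithelial cells such as those of the colon carry mostly the constitutive form until they meet a cytokine.

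The promoters of an exchanged pair and of a second constitutive subunit are shown because interferon and proteasome-stress regulators are known to act on these gene families through short motifs. RefSeq promoter sequence (GRCm38.p6) was found for 41 of the 49 genes, and the 250 bases upstream of each start site were searched on both strands. In the lines that follow, capitals mark the match, which is the gamma-activated site motif TTCNNNGAA in Psmb8 and the antioxidant-response motif TGACNNNGC in Psmb5 and Psmb6.
Psmb8: tcctccgctgTTCCCAGAAgatgcccccc
Psmb5: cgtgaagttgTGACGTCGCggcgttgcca
Psmb6: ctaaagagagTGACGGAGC

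The Psmb8 stretch lies at chr17:34198088-34198116 on the plus strand, with its motif 97 to 89 bases upstream of the RefSeq start. That start lies downstream of the annotated start of the Psmb8 gene at 34197721, so the stretch is inside the annotated gene. The Psmb5 stretch lies at chr14:54618024-54618052 on the minus strand, with its motif 47 to 39 bases upstream. The Psmb6 stretch lies at chr11:70525338-70525356 on the plus strand, with its motif 9 to 1 bases upstream. The gamma-activated site motif occurred in 2 of the 41 genes, Psmb8 and Psmg1, and in 7.02% of all 32851 promoters of that length. The antioxidant-response motif occurred in 5 genes, Psmb5, Psmb6, Psmc6, Psmd9 and Psmd12, and in 10.2% of all promoters. The interferon regulatory factor motif (GAAA, any 2 bases, GAAA) occurred in 3 genes, Psmb3, Psmd4 and Psmd9, and in 2.98% of all promoters. The kappa B consensus occurred in 6 genes, Psma6, Psma7, Psmd11, Psmd12, Psmd13 and Psme4, and in 7.25% of all promoters. No matches to different motifs overlapped within 1 of these promoters. The windows of Psmb9, Psmb10, Psme1 and Psme2 held none of the 4 motifs, and such a search shows only that these letters were not in these windows.

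Total counts over the 19308 genes ran from 8181193 in Itch KO replicate 1 to 12199709 in WT replicate 2. The deleted gene Itch had 203 and 183 CPM (counts scaled to library size with TMM factors) in WT and 11.9 and 13.4 CPM in Itch KO replicates 1 and 2, as their labels say. The colon epithelial marker Cdh1 (E-cadherin) was present at 284 to 386 CPM in all libraries. WT replicate 1 stood apart by its squamous epithelial markers, whose 9 genes summed to 656 CPM there and to 14.9 to 19.6 CPM in the other libraries. Of the 49 genes, 48 passed the filter on low counts and were tested among 16956 genes. The gene left untested was Psma8, an alpha subunit known from the testis, with counts of 6 and 7 in the WT and 8 and 29 in the knockout libraries. Psmb11, the beta subunit of thymic epithelium, was outside the 19308 genes and had counts of 0, 0 and 2 in WT replicate 2 and Itch KO replicates 1 and 2. With edgeR's quasi-likelihood test and Benjamini-Hochberg adjustment no gene had an adjusted p below 0.05, 0% of genes in either direction, although 1729 genes were higher and 1614 lower at an unadjusted p below 0.05. DESeq2 on the same counts called 889 genes higher and 807 genes lower after adjustment at the same threshold, which are 5.24% and 4.76% of the genes.

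Psmb9 was the proteasome gene with the largest difference between the groups. The gene (ENSMUSG00000096727; GRCm38 chromosome 17, 34181987 to 34187764, minus strand, protein-coding) encodes the immunoproteasome subunit that replaces the caspase-like Psmb6. Psmb9 had 55.0 CPM in WT replicate 1, 47.9 CPM in WT replicate 2 and 102 CPM in each knockout library. Both knockout libraries were far above both WT libraries and close to each other. The log2 fold change was 0.99 ± 0.14 (SE, n = 2 per group), with an edgeR adjusted p of 0.123 and a DESeq2 adjusted p of 0.00151. Psmb9 was the single proteasome gene that DESeq2 called, 1 of 48 against the 5.24% of all genes called higher. It was not called by DESeq2 when any 1 library was left out, with adjusted p from 0.0716 without WT replicate 1 to 0.318 without WT replicate 2. The edgeR log2 fold change was 1.11 without WT replicate 1, the library with squamous markers, and 0.88 without WT replicate 2.

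Psmb8 came next among the beta subunits. The gene (ENSMUSG00000024338; chromosome 17, 34197721 to 34201454, plus strand) encodes the chymotrypsin-like active subunit of the immunoproteasome and lies near Psmb9 in the major histocompatibility complex. It was at 43.8 and 34.8 CPM in the WT and 69.3 and 64.4 CPM in the knockout libraries. The knockout libraries lay above both WT libraries, which themselves differed more from each other than the knockout libraries did. The log2 fold change was 0.77 ± 0.18 (SE, n = 2 per group), with adjusted p of 0.158 in edgeR and 0.0933 in DESeq2. It was 0.96 without WT replicate 1 and 0.61 without WT replicate 2. Psmb8 overlaps the predicted gene Gm20496 on the opposite strand over 498 bases, and the strand setting of the counting is not known. Of the 50-base stretches of Psmb8 transcripts, 11.9% also occur in other genes, most of them in Gm20496.

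Psmb10, the inducible subunit with trypsin-like activity, differed less between the groups than its partners. The gene (ENSMUSG00000031897; chromosome 8, 105935735 to 105938444, minus strand) was at 72.3 and 68.0 CPM in the WT and 99.2 and 83.2 CPM in the knockout libraries. The groups did not overlap, with a log2 fold change of 0.38 ± 0.15 (SE, n = 2 per group) and an edgeR adjusted p of 0.267. Without Itch KO replicate 1 the fold change was 0.25, and without Itch KO replicate 2 it was 0.51. The value from all libraries lies inside the range of the constitutive subunits given later. Of the 3 inducible subunits, Psmb10 had the highest level per transcript length in both WT libraries, and Psmb9 had the highest knockout mean. Scaled by the length of the principal transcript, the WT means were 53.5 RPKM for Psmb10, 38.1 RPKM for Psmb9 and 24.1 RPKM for Psmb8. The knockout means were 69.6, 75.4 and 41.1 RPKM in the same order. In Itch KO replicate 1 Psmb10 and Psmb9 were nearly level, at 75.7 and 75.3 RPKM. In Itch KO replicate 2 they were at 63.4 and 75.5 RPKM. Among the 49 genes Psmb9 moved from rank 29 in the WT to rank 7 in the knockout mean on that scale.

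Since each inducible subunit takes the place of 1 constitutive subunit, the reads of each pair were set against each other within a library, which leaves out differences in library size. Of the reads of Psmb9 and Psmb6 together, Psmb9 held 44.1% (exact 95% interval 41.2% to 47.0%) and 44.6% (41.9% to 47.3%) in the WT libraries. It held 55.8% (53.3% to 58.4%) and 57.9% (55.5% to 60.2%) in the knockout libraries. The knockout intervals lay above the WT intervals, and these Clopper-Pearson intervals cover counting error only. Psmb6 itself, the constitutive caspase-like subunit, was at 69.7 and 59.6 CPM in the WT and 80.6 and 74.2 CPM in the knockout libraries, a log2 fold change of 0.26 ± 0.15 (SE, n = 2 per group). Per transcript length, Psmb9 stood at 0.466 and 0.474 times the level of Psmb6 in the WT libraries. The ratio was 0.746 and 0.812 in the knockout libraries, a 1.65-fold shift.

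For Psmb8 and its counterpart Psmb5 the shift was smaller. Psmb8 held 58.9% (55.1% to 62.6%) and 54.9% (51.3% to 58.4%) of the pair's reads in WT replicates 1 and 2, beside 61.4% (58.2% to 64.6%) and 61.7% (58.6% to 64.7%) in the knockout libraries. Both knockout shares were the higher ones, but both intervals overlap that of WT replicate 1, and the interval of Itch KO replicate 1 also overlaps that of WT replicate 2. Psmb5, the constitutive chymotrypsin-like subunit, had 30.6 and 28.6 CPM in the WT and 43.5 and 40.0 CPM in the knockout libraries, a log2 fold change of 0.50 ± 0.19 (SE, n = 2 per group). This was the largest value among the constitutive subunits, and it is uncertain because 54.1% of the 50-base stretches of Psmb5 transcripts also occur in other genes, most of them in the predicted gene Gm3375.

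For Psmb10 and its counterpart Psmb7 the knockout and WT libraries overlapped. Psmb10 held 54.6% and 56.0% of the pair's reads in WT and 55.8% and 54.2% in the knockout libraries. Psmb7, the constitutive trypsin-like subunit, was at 60.2 and 53.4 CPM in the WT and 78.5 and 70.2 CPM in the knockout libraries. Its log2 fold change was 0.39 ± 0.15 (SE, n = 2 per group), beside the 0.38 of Psmb10. Psmb7 overlaps the gene Nek6 on the opposite strand over 405 bases, and the strand setting of the counting is not known. Of the 50-base stretches of Psmb7 transcripts, 9.26% also occur in Nek6. The mean log2 difference over the 3 pairs was 0.15 and 0.10 in the WT and 0.45 and 0.46 in the knockout libraries. Its group means were 0.13 ± 0.030 and 0.45 ± 0.011 (SD, n = 2 each), a 1.26-fold shift that came from the pairs of Psmb9 and Psmb8. With 2 libraries against 2, an exact two-sided permutation test cannot give a p below 0.33, so no test was made of it.

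**Figure D1:**
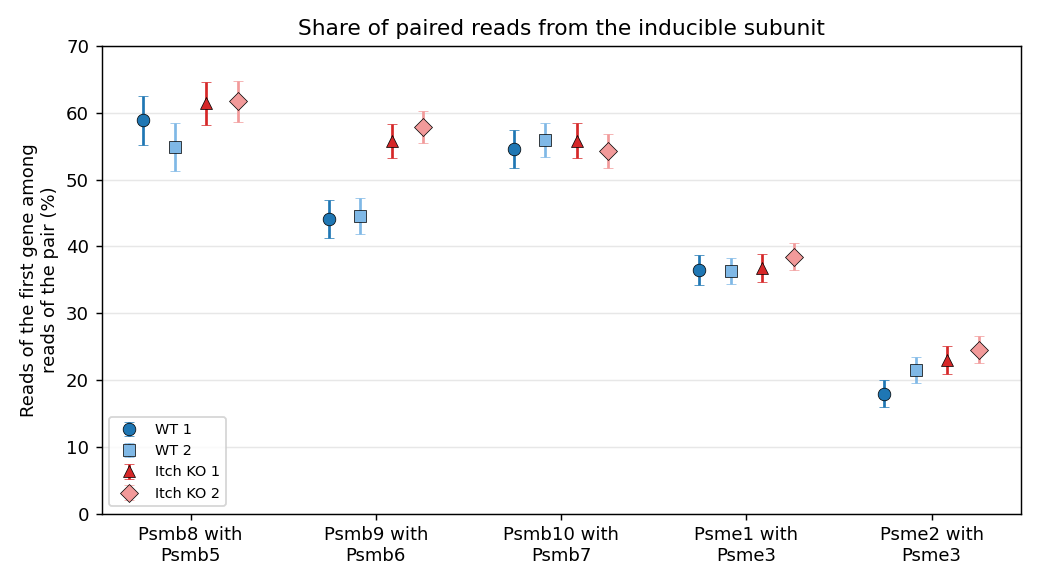
Share of reads (percent, vertical axis) that came from the first gene of each pair, for the 4 libraries. Points are single libraries and bars are exact 95% binomial intervals; the Psmb9 share was 44.1% and 44.6% in WT and 55.8% and 57.9% in Itch KO libraries, while the Psmb10 shares of the groups overlapped.

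The same ratios were taken against all 31 constitutive subunits of the 20S core and the 19S particle. The ratio of Psmb9 to each of the 31 was higher in both knockout than in both WT libraries, and so was that of Psmb8 to each. The median log2 shift was 0.67 for Psmb9 and 0.46 for Psmb8. For Psmb10 the ratio was higher in both knockout libraries against 10 of the 31 subunits and lower against 3, with a median shift of 0.058. Psme2 was higher against 23 of the 31 and lower against none, with a median shift of 0.33. Psme1 was higher against 8 and lower against 3, with a median shift of 0.051. The 31 ratios of a gene share its own counts and are not independent of each other.

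The PA28 activator subunits, which open the gate of the core, both stood higher in the knockout libraries. Psme1 (PA28 alpha; ENSMUSG00000022216; chromosome 14, 55578123 to 55581529, plus strand) was at 70.9 and 67.6 CPM in the WT and 90.6 and 87.9 CPM in the knockout libraries. Its log2 fold change was 0.37 ± 0.12 (SE, n = 2 per group) with an edgeR adjusted p of 0.219, inside the range of the constitutive subunits. Psme2 (PA28 beta; ENSMUSG00000079197; chromosome 14, 55587441 to 55591113, minus strand) was at 26.9 and 32.4 CPM in the WT and 46.5 and 45.8 CPM in the knockout libraries. Its log2 fold change was 0.64 ± 0.20 (SE, n = 2 per group) with an edgeR adjusted p of 0.212.

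The Psme2 value is uncertain, because 28.3% of the 50-base stretches of its transcripts also occur in its intronless copy Psme2b, and 69.3% of those of Psme2b occur in other genes. Psme2b was listed at 55.2 and 45.9 CPM in the WT and 69.2 and 61.7 CPM in the knockout libraries, a log2 fold change of 0.37. How reads were divided between these genes is not given in the sources used here.

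The other activators differed less. Psme3, which forms the nuclear activator PA28 gamma and is not part of the interferon-induced set, was at 124 and 118 CPM in the WT and 156 and 141 CPM in the knockout libraries, a log2 fold change of 0.29 ± 0.12 (SE, n = 2 per group). Psme1 held 36.4% and 36.3% of the reads of Psme1 and Psme3 in the WT and 36.7% and 38.5% in the knockout libraries. The corresponding Psme2 share was 17.9% and 21.5% in the WT and 22.9% and 24.5% in the knockout libraries. For both genes the knockout shares lay above the WT shares. The margin between the groups was smaller than the gap between the knockout libraries for Psme1, and smaller than the gap between the WT libraries for Psme2.

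Psme4, which encodes the nuclear activator PA200, was the single tested proteasome gene with a negative fold change. It was at 225 and 205 CPM in the WT and 210 and 167 CPM in the knockout libraries, and the groups overlapped. The log2 fold change was -0.19 ± 0.18 (SE, n = 2 per group) with an edgeR adjusted p of 0.567. Psmf1, which encodes the proteasome inhibitor PI31, was at 78.3 and 90.2 CPM in the WT and 91.1 and 86.0 CPM in the knockout libraries. Its groups overlapped as well, with a log2 fold change of 0.071 ± 0.14 (SE, n = 2 per group). Without WT replicate 1 the value for Psmf1 was -0.0071, so its direction rested on that library.

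Of the 48 tested genes, 47 had a log2 fold change above 0, where 50.6% of all tested genes did, and the median was 0.34 against 0.0085 for all. The groups did not overlap, with the knockout libraries higher, for 45 of the 48, where 30% of all genes did so. The 3 exceptions were Psma3, Psme4 and Psmf1, and no proteasome gene was lower in both knockout libraries, where 26% of all genes were. At an unadjusted p below 0.05 (edgeR) 10 of the 48 were higher, where 10.2% of all genes were, and none was lower, where 9.52% were. These 10 were the core subunits Psmb4, Psmb8 and Psmb9, the base subunits Psmc4 and Psmd4, the lid subunits Psmd7, Psmd13 and Psmd14, and the activators Psme1 and Psme2. None of the 48 had an edgeR adjusted p below 0.123. Taken as counts, the 49 genes held 0.322% and 0.313% of all reads in the WT and 0.416% and 0.387% in the knockout libraries.

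**Figure D2:**
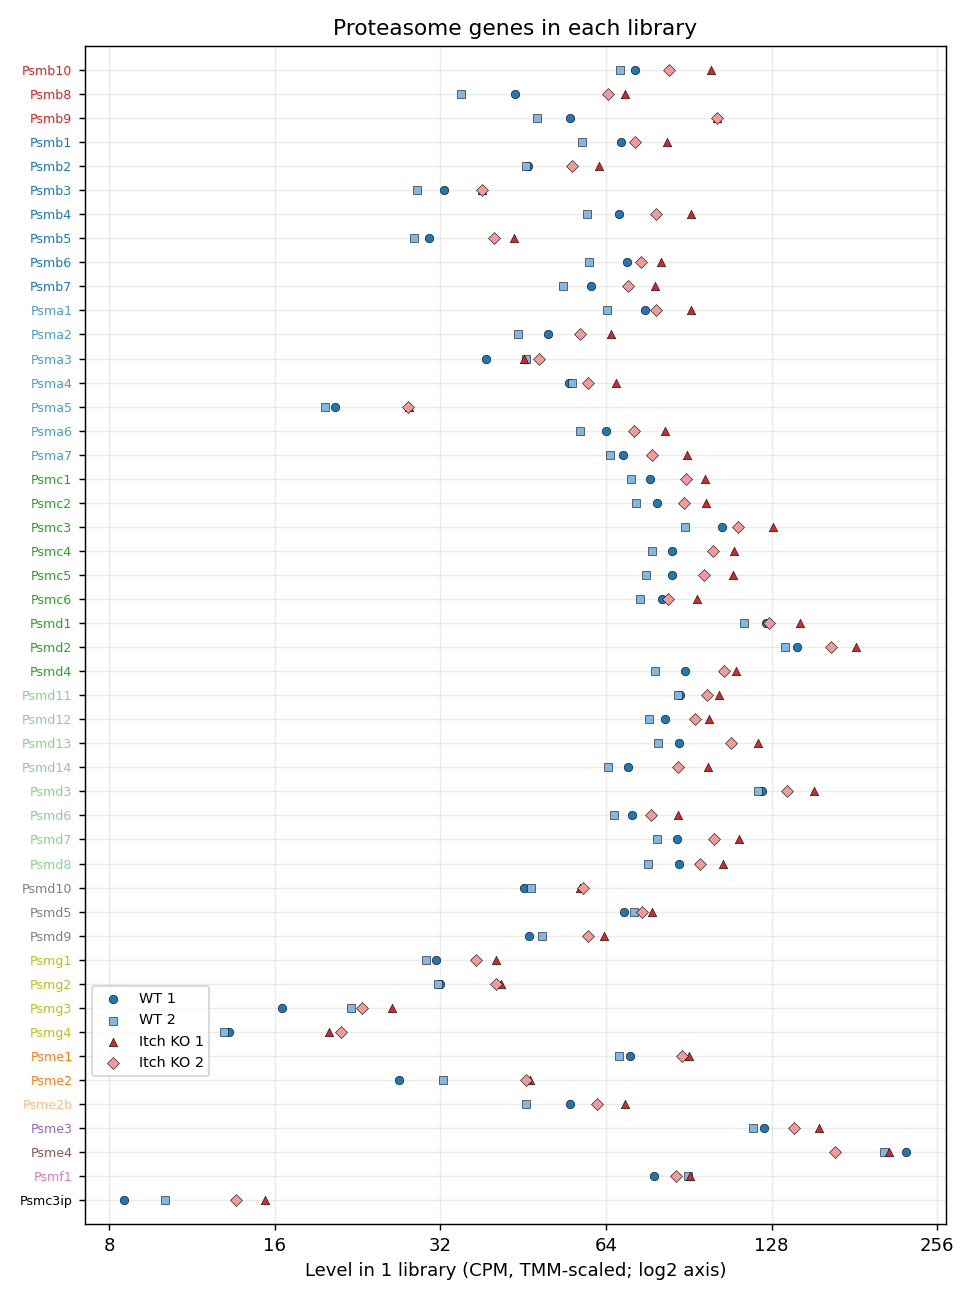
Level of each of the 48 tested proteasome genes in each library (TMM-scaled CPM, log2 axis), 1 point per library, with gene names coloured by role. For 45 genes both Itch KO points lie to the right of both WT points, and Psmb9 stands at 102 CPM in both Itch KO libraries against 55.0 and 47.9 CPM in the WT libraries.

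The alpha subunits of the core, Psma1 to Psma7, had log2 fold changes from 0.15 for Psma3 to 0.47 for Psma5, with a median of 0.32. Psma5 was at 20.5 and 19.8 CPM in the WT and 28.1 and 27.9 CPM in the knockout libraries. Its SE was 0.25, and 50% of its 50-base stretches also occur in other genes, mostly the predicted genes Gm8394 and Gm12989. Psma3, another subunit of the outer ring, was at 38.8 and 45.7 CPM in the WT and 45.5 and 48.3 CPM in the knockout libraries, so that WT replicate 2 lay between the knockout libraries. The constitutive beta subunits, Psmb1 to Psmb7, ran from 0.26 for Psmb6 to 0.50 for Psmb5, with a median of 0.36. Psmb4, a beta subunit without an active site, was at 67.7 and 59.1 CPM in the WT and 91.4 and 79.0 CPM in the knockout libraries, a log2 fold change of 0.43 ± 0.15 (SE, n = 2 per group). None of these 14 values was larger than that of Psmb8 or Psmb9.

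Per transcript length the 14 constitutive core genes had a median of 48.1 RPKM in the WT and 59.1 RPKM in the knockout means. Psmb6 was the highest of the 49 genes in both groups, at 81.0 and 97.0 RPKM, followed by Psma7 at 73.2 and 91.5 RPKM. Psma3 was the lowest of the 14, at 14.8 and 16.5 RPKM. These levels differ although the subunits are present in equal number in a core particle, and lengths of annotated transcripts enter them.

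The base of the 19S particle holds the ATPases Psmc1 to Psmc6, the scaffolds Psmd1 and Psmd2, and the ubiquitin receptor Psmd4. Its 9 genes had log2 fold changes from 0.18 for Psmd1 to 0.37 for Psmc4, with a median of 0.32. All 9 were higher in both knockout libraries, where 30% of all genes and 44.8% of the densest decile (described later) were. Psmd2 was at 142 and 135 CPM in the WT and 182 and 164 CPM in the knockout libraries. The scaffold Psmd1, at 125 and 114 CPM in the WT and 144 and 127 CPM in the knockout libraries, had knockout replicate 2 only just above WT replicate 1.

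The 8 lid genes ran from 0.20 for Psmd11 to 0.46 for Psmd13, with a median of 0.28, and again all were higher in both knockout libraries. Psmd14, the deubiquitinase of the lid, was at 70.1 and 64.4 CPM in the WT and 98.0 and 86.4 CPM in the knockout libraries. Its log2 fold change was 0.46 ± 0.14 (SE, n = 2 per group) with an edgeR adjusted p of 0.204. The structural subunit Psmd13 was at 87.0 and 79.5 CPM in the WT and 121 and 108 CPM in the knockout libraries, with the same rounded fold change. Over all 31 constitutive core and 19S subunits the SD of the log2 fold changes was 0.089, and 30 of the 31 were higher in both knockout libraries, where 30% of all genes and 44.8% of the densest decile (described later) were.

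Most assembly chaperones lay in the same range, with Psmd5 below it and Psmg4 above it. Psmd5, Psmd9 and Psmd10, which help to build the 19S base, had log2 fold changes of 0.11, 0.37 and 0.33. Psmd9 is uncertain, because it overlaps the predicted gene Gm26745 on the opposite strand over 1849 bases and the strand setting of the counting is not known. Psmg1 to Psmg4, which help to build the core, ran from 0.33 to 0.66. Psmg4 gave the upper value, at 13.2 and 12.9 CPM in the WT and 20.1 and 21.1 CPM in the knockout libraries, with an SE of 0.33 and an edgeR adjusted p of 0.338. Psmc3ip, the recombination factor, was at 8.52 and 10.1 CPM in the WT and 15.3 and 13.6 CPM in the knockout libraries, with a log2 fold change of 0.64 ± 0.40 (SE, n = 2 per group). It was the lowest-expressed of the tested genes.

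**Figure D3:**
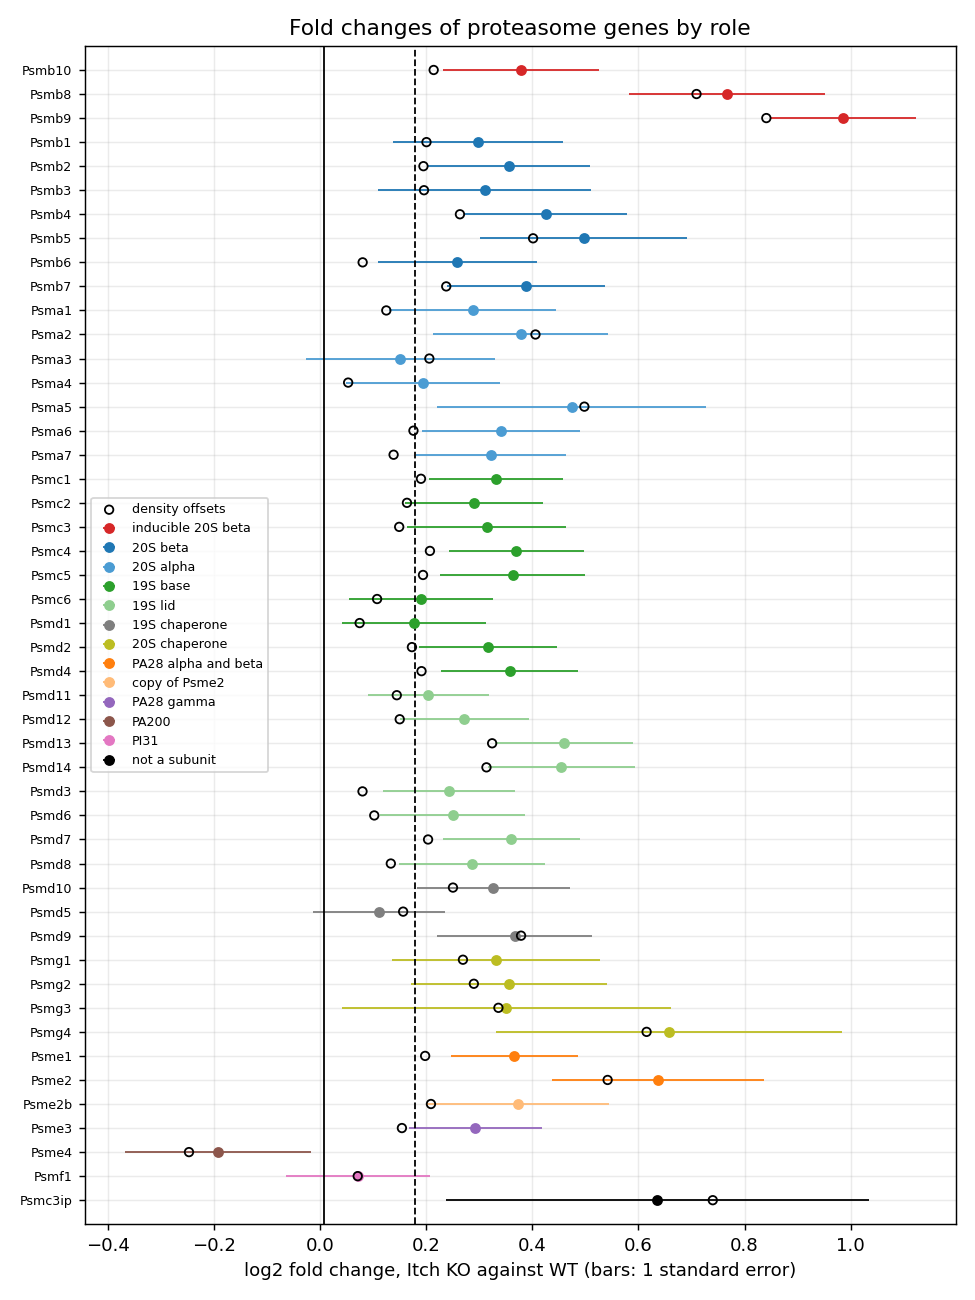
Log2 fold change of Itch KO against WT for the 48 tested genes (edgeR), with bars of 1 standard error and colours by role. Open circles give the value after removal of each library's trend on read density, the solid line is the median of all genes (0.0085) and the dashed line that of the decile of genes with the most reads per base (0.18); Psmb9 (0.99) and Psmb8 (0.77) lie farthest right and Psme4 (-0.19) farthest left.

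How much of the common part of these differences belongs to the groups depends on how the libraries are scaled, because the proteasome genes are not spread evenly over read density. Their counts per base of transcript ran from 0.0893 to 0.866 with a median of 0.487, and 25 of the 48 lay in the densest decile of all genes. That decile had a median log2 fold change of 0.18 and the sparsest decile one of -0.48. In the densest decile 44.8% of genes were higher in both knockout libraries. Between the 2 WT libraries the ratio of counts also fell with density, and the cause was not tested. WT replicate 2 had a median of 1.18 times the counts of WT replicate 1 in the densest decile and 1.5 times in the sparsest.

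With each library's trend on read density removed, an alternative added after the data had been seen, the median log2 fold change of the 48 genes was 0.20 and that of the 31 constitutive subunits 0.19. It was then 0.71 for Psmb8, 0.84 for Psmb9 and 0.21 for Psmb10. At an unadjusted p below 0.05, 5 of the 48 were then higher, where 10.6% of all genes were, and none was lower, where 10.2% were. With loess offsets, which remove a trend on the mean level, 18 of the 48 were higher at that threshold, where 11.9% of all genes were, and none was lower, where 10.4% were. Psme4 was again the single gene below 0 under both, and the 47 others were above 0, as were 50.1% of all genes with density offsets and 51.1% with loess offsets.

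**Figure D4:**
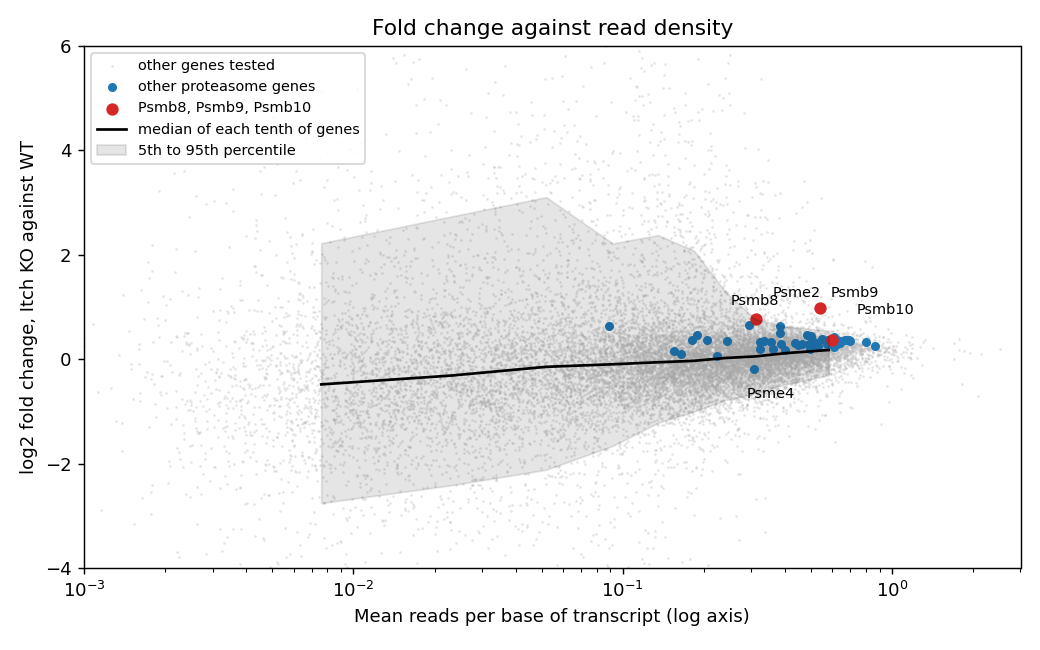
Log2 fold change of Itch KO against WT (vertical axis) against mean reads per base of transcript (log axis), with 1 point per tested gene inside the axis ranges. The black line joins the medians of 10 equal groups of genes, from -0.48 to 0.18, and the grey band spans their 5th to 95th percentiles; Psmb9 lies above the band and most other proteasome genes lie inside it, above the line.

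The order of the libraries also followed depth. For 35 of the 48 genes (72.9%) the levels increased from WT replicate 2 through WT replicate 1 and Itch KO replicate 2 to Itch KO replicate 1, which is the order of falling total counts. Of the densest decile of genes 32.5% had this order, and of all genes 9.45%. Within the groups, 39 of the 48 genes were lower in WT replicate 2 than in WT replicate 1 and 43 were lower in Itch KO replicate 2 than in Itch KO replicate 1. The median differences were -0.11 and -0.15 on the log2 scale, where all genes had 0.0029 and -0.045. The part of depth in the difference between the groups was not tested apart from these values.

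WT replicate 1 and Itch KO replicate 2 had nearly the same totals, 9674531 and 9463759 counts, and their raw counts can be set side by side without scaling. Of the 48 genes 47 had more counts in Itch KO replicate 2, with a median log2 ratio of 0.26, where 55.6% of all genes did, with a median of 0.078. Psmb9 had 517 and 990 counts, a ratio of 1.91 and the largest of the 48. Psme2 followed with 1.75, and Psmb8 with 411 and 625 counts had 1.52. Psmb10 with 679 and 807 counts had 1.19, and Psme4 had the lowest ratio at 0.765. This is 1 library against another and carries no replicate error.

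Genes that act beside the proteasome were taken from lists and not by their values. The lists were chosen with earlier results of these data known. Of 12 genes of peptide loading on MHC class I, which display the peptides that the proteasome cuts, 11 were higher in both knockout libraries. Of all genes 30% were, and of the densest decile 44.8%. Their median log2 fold change was 0.33, where the 31 constitutive subunits had 0.32. With density offsets these medians were 0.17 and 0.19. DESeq2 called 2 of the 12 class I genes higher, where it called 5.24% of all genes. Nlrc5, the transcriptional activator of class I genes and of Psmb9, was at 54.4 and 32.2 CPM in the WT and 119 and 158 CPM in the knockout libraries, while the lectin chaperone Canx was at 228 and 221 and at 269 and 248 CPM. Tap1, the peptide transporter gene next to Psmb9, was at 110 and 77.6 CPM in the WT and 197 and 202 CPM in the knockout libraries. Tap1 and Psmb9 lie on opposite strands and share 212 bases of exon, and 4.19% of the 50-base stretches of Psmb9 occur in Tap1.

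Of 12 genes of interferon gamma and JAK-STAT signalling, 8 were higher in both knockout libraries and none was lower, where 30% and 26% of all genes were, with a median log2 fold change of 0.72. DESeq2 called 6 of them higher, where it called 5.24% of all genes. Socs1, a feedback inhibitor of this signalling, was at 8.09 and 10.2 CPM in the WT and 40.1 and 61.3 CPM in the knockout libraries. Between the knockout libraries Socs1 and Nlrc5 were higher in replicate 2. Psmb8 and Psmb10 were lower there and Psmb9 was level. Of the 48 tested proteasome genes 43 were lower there, with a median log2 difference of -0.15. As shares of their pairs, Psmb9 rose there from 55.8% to 57.9%, Psmb8 from 61.4% to 61.7%, and Psmb10 fell from 55.8% to 54.2%. Whether these orders are linked was not tested.

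Other genes of the proteasome system that the symbol pattern does not catch differed less. Of 13, 6 were higher and 1 lower in both knockout libraries, where 30% and 26% of all genes were, with a median log2 fold change of 0.23, and none was called. Uchl5, a deubiquitinase bound to the 19S particle, was at 44.3 and 43.9 CPM in the WT and 65.1 and 61.0 CPM in the knockout libraries. Nfe2l1, the transcription factor that raises proteasome genes when proteasome activity falls short, was at 257 and 230 CPM in the WT and 242 and 230 CPM in the knockout libraries, which overlapped. Of 11 genes that extract ubiquitinated proteins or ferry them to the proteasome, 6 were higher and 2 lower in both knockout libraries, beside the same 30% and 26%, with a median of 0.096. The segregase Vcp was at 90.5 and 86.2 CPM in the WT and 116 and 109 CPM in the knockout libraries, and the shuttle Ubqln1 was at 163 and 159 and at 190 and 160 CPM.

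Markers of leukocytes, which carry immunoproteasomes without stimulation, were higher in the same libraries as Psmb8 and Psmb9. All 12 pan-leukocyte markers were higher in both knockout libraries, where 30% of all genes were, with a median log2 fold change of 1.58, and DESeq2 called all 12, where it called 5.24% of all genes higher. Their summed level was 544 and 464 CPM in the WT and 1318 and 1632 CPM in the knockout libraries. Coro1a, an actin regulator of leukocytes, was at 46.8 and 40.7 CPM in the WT and 138 and 154 CPM in the knockout libraries. All 10 B and T cell markers were higher, summing to 100 and 119 CPM in the WT and 550 and 616 CPM in the knockout libraries. All 9 tested macrophage and neutrophil markers were higher too, summing to 403 and 237 CPM and to 705 and 928 CPM. DESeq2 called 5 of these 10 and 3 of these 9 markers higher, beside the same 5.24% of all genes. None of these markers was at 0 in every library, and their part in the differences of Psmb8, Psmb9, Psmb10, Psme1 and Psme2 was not tested. In such bulk tissue more cells of a type and more RNA per cell cannot be told apart.

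The 12 colon epithelial markers summed to 1927 and 1704 CPM in the WT and 2139 and 1664 CPM in the knockout libraries. Their median log2 fold change was 0.078. In both knockout libraries 2 of the 12 were lower and 0 higher, where 26% and 30% of all genes were. The goblet cell mucin Muc2 was 1 of the 2 lower genes, at 19.4 and 27.0 CPM in the WT and 9.81 and 2.27 CPM in the knockout libraries. Its gene identifier was not found in the GENCODE M21 annotation, and what part of the gene its counts cover is not known. The thymic epithelial list had 2 genes in the files, and they went different ways. Prss16 was at 3.51 and 2.60 CPM in the WT and 23.2 and 17.9 CPM in the knockout libraries. Foxn1 was at 17.1 and 1.55 CPM in the WT and 4.78 and 3.09 CPM in the knockout libraries, which overlapped, and Psmb11, the thymic proteasome subunit, was almost without reads as given above. The squamous keratin Krt5 was at 138 CPM in WT replicate 1 and at 0.244 to 3.09 CPM in the other libraries. Without WT replicate 1 the median log2 fold change of the proteasome genes was 0.42 and that of all genes 0.036.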

How the data were processed

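RNA was sequenced from colonic mucosa, with 2 WT and 2 Itch KO libraries grouped by title and genotype. The authors deposited raw counts per gene, and the submitters' processing notes name HTSeq 0.6.1, SAMtools 0.1.19, TopHat2 and CASAVA 1.8.2, with mm10 and GRCm38. The sources used here do not give the strand setting or how duplicate reads were handled. The file of WT replicate 1 lists 19308 genes and the others 39179. The shared genes carry 97.3% to 97.7% of the counts in the longer files. Reads outside genes (18.2% to 23.0%) and ambiguous reads stayed out of library sizes.

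The main test was edgeR 4.0.16 (R 4.3.3), a two-sided quasi-likelihood test with TMM factors, filterByExpr at a minimum count of 10, robust estimation, no term other than group, and a Benjamini-Hochberg threshold of 0.05. Residual degrees of freedom were 2, and the biological coefficient of variation came to 34.8%. RPKM used the principal GENCODE M21 transcript. Fits were tested on simulated counts. Alternatives were RLE, upper quartile, loess and density offsets, other filters, DESeq2 1.42.0, voom from limma 3.58.1, other estimators, a replicate block and leaving out each library.

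The proteasome genes (members of the symbol pattern) and the lists were chosen with earlier results of these data known. Every gene matching the symbol pattern is accounted for. From each list the text names the gene with the smallest p and the gene with the highest mean CPM, and some of these are not reported here. Tap1 is named for its position. The cell type lists are Leukocyte, B and T cell, macrophage and neutrophil, colon, squamous and thymic epithelium.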

Additional observations from a re-analysis of the deposited data

How the results depend on the processing

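Of 1104 values of proteasome genes under alternatives, 1098 kept their direction and side of the threshold, 1 passed it and 5 changed sign. The one that passed was Psmb9 under DESeq2, with a log2 fold change of 0.96 and an adjusted p of 0.00151. DESeq2 called 889 genes higher, 807 lower and 1 proteasome gene, and edgeR called none. The sign changes were in 3 genes. Psmf1 was at -0.0071 without WT replicate 1, at -0.033 there with DESeq2 and at -0.044 there with loess offsets, and at most at 0.17 without another library. Psma3 was at -0.018 without WT replicate 1 with loess offsets, and Psme4 at 0.025 without Itch KO replicate 2 with loess offsets. Density offsets, DESeq2 without each library and loess offsets without each library were chosen after seeing the data. Over all settings without 1 library, genes called higher ran from 0 to 809, genes called lower from 0 to 562, and proteasome genes called stayed at 0. DESeq2 called 809 genes higher and 361 lower without WT replicate 1, 584 and 309 without WT replicate 2, 667 and 562 without Itch KO replicate 1, and 158 and 280 when Itch KO replicate 2 was left out. Loess offsets without WT replicate 1 gave 3 higher and 5 lower. In these fits a lone library was assumed to vary like the other group. The cause of these changes was not tested.

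The edgeR adjusted p of Psmb9 ran from 0.0898 (legacy=FALSE) to 0.421 (without Itch KO replicate 2). The log2 shift of the 3 inducible pairs was 0.33, with 0.31 to 0.35 when 1 library was left out, 0.36 with loess offsets and 0.39 against all other core and 19S subunits. Replicate numbers did not pair the libraries (correlation of deviations 0.048 over 16956 genes). With the replicate block Psmb9 had a log2 fold change of 0.99 and an adjusted p of 0.264, and 0 genes were called. No edgeR setting on all 4 libraries called any gene.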
